A study of Mus musculus with 4 samples.

Results

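The Toll-like receptor genes examined here were Tlr1, Tlr2, Tlr3, Tlr4, Tlr5, Tlr6, Tlr7, Tlr8, Tlr9 and Cd180, chosen by name, 10 of the 21887 protein-coding genes in the annotation. H3K27me3, the trimethyl mark of histone H3 lysine 27 that Polycomb repressive complex lays down, was mapped over them by CUT&Tag, in which an antibody directs a transposase to cut DNA beside the mark. The cells were germinal center B cells sorted from spleens of C57BL/6 mice, with 2 wild-type (WT) mice and 2 mice carrying a B-cell knockout (KO) of Kdm6b, an enzyme that erases this mark. All 4 mice, 1 per library, had received sheep red blood cells as antigen with a boost on day 5, and spleens were taken on day 12. The labels call the cells germinal center B cells and the title of the series pre-plasma, with no sort markers named. The sources used here do not give the Cre line, the deleted exons, or the age and sex of the mice. Replicate numbers serve as names of libraries and pair none of them. Where 4 values stand in a row, their order is KO replicate 1, KO replicate 2, WT replicate 1, WT replicate 2.

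Toll-like receptors sense parts of microbes and signal, mostly through the adaptor Myd88, to NF-kB and interferon regulatory factors. Tlr1, Tlr2, Tlr4, Tlr5 and Tlr6 act at the cell surface, where they detect bacterial lipopeptides, lipopolysaccharide (LPS) or flagellin, while Tlr3, Tlr7, Tlr8 and Tlr9 detect nucleic acids inside endosomes. In B cells Tlr7 and Tlr9 drive responses to RNA and DNA antigens, and Cd180, a related protein without the signalling domain, acts at the surface. These 3 genes were set against the other 7, whose main users are myeloid, dendritic or epithelial cells. The division is not strict, since mouse B cells also respond to LPS, the ligand of Tlr4.

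The mark covered the 5′ ends of Tlr2 and Tlr5 in every library and was almost absent from Tlr7, Tlr9 and Cd180. Among the receptors of other cells, both ends of Tlr1 and Tlr4 and the 5′ end of Tlr3 were also bare in every library. The promoters of Tlr2, Tlr5, Tlr9 and Cd180 are shown first, chosen because their coverage differs. For Tlr7 no promoter sequence was available. Each line gives the 250 bases before the start of the transcript, 5′ to 3′ on the strand of the gene, as RefSeq has it for GRCm38.p6 (mm10), with CG dinucleotides in capitals. The windows are chr3:83841609-83841858 on the minus strand for Tlr2, and chr1:182954538-182954787, chr9:106222348-106222597 and chr13:102693297-102693546 on the plus strand for Tlr5, Tlr9 and Cd180. The RefSeq starts used for Tlr2 and Tlr5 lie 216 and 36 bp inside the annotated genes, so the Tlr2 window reaches into the gene.
Tlr2: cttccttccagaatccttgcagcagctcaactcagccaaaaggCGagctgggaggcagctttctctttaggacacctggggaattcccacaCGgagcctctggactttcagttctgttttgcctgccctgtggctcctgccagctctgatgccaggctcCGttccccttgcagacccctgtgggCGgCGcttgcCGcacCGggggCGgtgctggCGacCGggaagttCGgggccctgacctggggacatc
Tlr5: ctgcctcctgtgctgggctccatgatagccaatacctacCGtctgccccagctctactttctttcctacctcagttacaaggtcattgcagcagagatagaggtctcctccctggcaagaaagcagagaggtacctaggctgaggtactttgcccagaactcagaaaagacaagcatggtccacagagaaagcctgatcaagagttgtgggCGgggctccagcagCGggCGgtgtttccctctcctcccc
Tlr9: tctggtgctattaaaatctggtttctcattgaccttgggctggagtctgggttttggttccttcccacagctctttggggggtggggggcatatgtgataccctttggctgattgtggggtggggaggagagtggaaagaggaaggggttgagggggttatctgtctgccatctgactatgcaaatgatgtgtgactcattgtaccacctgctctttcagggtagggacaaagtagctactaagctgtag
Cd180: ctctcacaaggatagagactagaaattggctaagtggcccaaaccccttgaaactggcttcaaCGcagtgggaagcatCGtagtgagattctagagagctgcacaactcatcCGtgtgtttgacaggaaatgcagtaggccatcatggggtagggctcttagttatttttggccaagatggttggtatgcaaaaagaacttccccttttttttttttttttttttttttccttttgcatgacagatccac
The Tlr5 window lay under a peak over all 250 bases in 4 libraries, and the Tlr2 window over 250 bases in 3 libraries and 201 in WT replicate 2. In the Tlr9 window 0 bases lay under a peak in any library, and in that of Cd180 there were 141 in WT replicate 2 and 0 elsewhere.

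Of the 10 genes, 8 had an entry in the promoter table, and Tlr4 and Tlr7 did not. The printed windows held 11 CG dinucleotides in Tlr2, 4 in Tlr5, 3 in Cd180 and 0 in Tlr9. The windows not printed held 6 in Tlr3, 1 in Tlr8, 8 and 1 at the 2 starts of Tlr1, and 4 and 6 at the 2 starts of Tlr6. Around these starts of Tlr1, Tlr3 and Tlr6 the 4 kb had 0% in every library, so some bare promoters held more CG than the covered Tlr5. Over the 17492 genes with an entry the median was 10, and 7.36% had no CG, as in Tlr9. Tlr5, with 4, stood at or above 34.1% of these promoters in CG number, and Tlr2 at or above 54.9%, so one covered promoter was near the median and the other below it. Over all genes, the 5′ end was marked, meaning that peaks covered at least 25% of the 4 kb around it, in all 4 libraries for 4.90% of promoters without CG, 14.4% of those with 1 to 5, 26.4% with 6 to 15 and 25.3% with 16 to 56. These classes are a description across genes, which are not replicates.

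**Figure D1:**
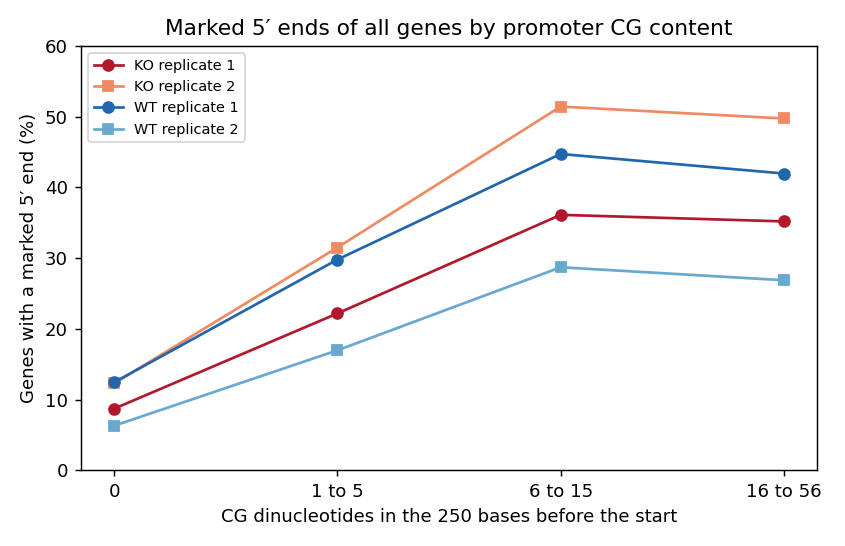
Share of genes with a marked 5′ end (y axis, %) by the number of CG dinucleotides in the 250 bases before the start (x axis), 1 line per library. In each library the share was lowest at promoters without CG, from 6.29% in WT replicate 2 to 12.4% in WT replicate 1.

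Motifs were counted on both strands of the same 250 bases, and matches of different motifs may overlap. GGAA, the core letters of ETS factor sites, had 6 matches in Tlr2, 4 in Tlr9, 4 in Cd180 and 2 in Tlr5, and 93.2% of all promoters held it. The NF-kB pattern of GGG, any 5 bases and CC had 3 matches in Tlr2, 1 in Tlr5 and 0 in Tlr9 and Cd180, against 51.1% of promoters with a match. TGACTCA, the AP-1 letters, had 1 match in Tlr9 and 0 in the other 3, against 3.98% of promoters. CCGG had 2 matches in Tlr2 and 0 in the other 3 (55.2% of promoters), and TATAAA had 0 in all 4 (12.4%). The windows not printed included bare starts with the same motifs. Tlr3 had 6 matches of GGAA, 2 of the NF-kB pattern and 2 of CCGG. Tlr1 had 2 of CCGG at 1 start, and Tlr6 had 1 of the NF-kB pattern at 1 start. Tlr1 and Tlr8 had 0 of the NF-kB pattern, and Tlr6 and Tlr8 had 0 of CCGG.

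The libraries differed in how much of the genome their peaks covered, from 101 Mb in WT replicate 2 to 236 Mb in KO replicate 2, with 144 Mb in KO replicate 1 and 213 Mb in WT replicate 1. The 2 broadest lists, KO replicate 2 and WT replicate 1, also had the most marked gene ends, and read depth was unknown. The labels give an input of 1000 to 5000 cells, and its part in the spread of covered length was not tested. Because each library pools many cells, a mark in fewer cells and less mark per cell cannot be told apart. Of 12 genes of germinal center B cells, 1, 3, 0 and 0 had a marked end, against 33.9%, 46.7%, 41.1% and 26.9% of all genes. Both ends were bare in every library for 5 of these 12, the identity genes Bcl6 and S1pr2 among them, against 36.7% of all genes. The marked genes were Ms4a1, Cd79a and Cd79b. For Ms4a1 the high end had 33.5%, 41.85%, 0% and 14.3% (limma adjusted p = 0.907). Cd79a and Cd79b were marked in KO replicate 2 only. Of 8 T cell genes, 5, 7, 7 and 6 were marked, of 8 myeloid genes 6, 7, 8 and 5, and of 6 plasma cell genes 2, 4, 2 and 2. The mark does not measure RNA, so these lists do not show which cells were in the sort.

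Across the 20 ends of the 10 receptor genes, 2, 5, 3 and 3 were marked. Over all 43774 gene ends the share was 22.6%, 33.1%, 28.8% and 17.3%. The 2 ends marked in all 4 libraries were the 5′ ends of Tlr2 and Tlr5, or 10% of the 20, against 15.5% of all gene ends, 20.8% of 5′ ends and 8.59% of 3′ ends. Of the 20 ends, 0 were marked in the KO pair alone (0.923% of all ends) and 0 in the WT pair alone (0.16%). A peak within 20 kb was present in all 4 libraries for 4 of the 10 genes, namely Tlr2, Tlr3, Tlr5 and Tlr8, against 62.4% of all genes. Of the 20 ends, 15 (75%) were marked in no library, against 63.2% of all ends, and 12 (60%) had no coverage at all, against 52.5%. Whether these shares differ from those of all ends was not tested, and nothing particular to the receptor genes is read from them.

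**Figure D2:**
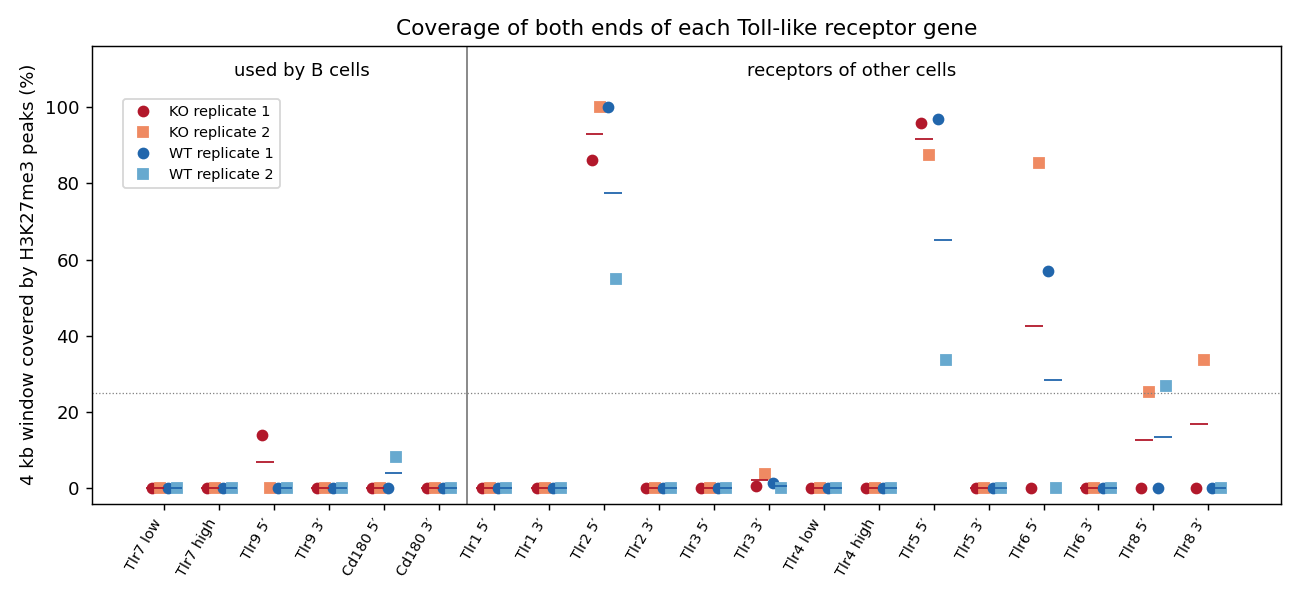
Share of the 4 kb window around each end of each receptor gene that peaks covered (y axis, %), 1 point per library, with short lines for the mean of each genotype and a dotted line at 25%. Ends are named 5′ or 3′, or low and high coordinate for Tlr4 and Tlr7, and only the 5′ ends of Tlr2 and Tlr5 lie above 25% in all 4 libraries.

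Tlr2 encodes the receptor for bacterial lipopeptides that pairs with Tlr1 or Tlr6, and it was the most heavily covered of the receptor genes. Tlr2 (gene ID 24088) lies on chromosome 3 at 83836272 to 83841824. Its 5′ end was covered to 86.1% and 100% for the KO mice, and to 100% and 54.9% for the WT mice. WT replicate 2 was the lowest and the other 3 were close together, so the genotypes overlapped. The mean was 93.0% ± 9.85 in KO and 77.5% ± 31.9 in WT (SD, n = 2), a difference of 15.6 points (SE 19.9, limma adjusted p = 0.915). Without WT replicate 2 it was -6.96 points. The 3′ end of the same gene, within 6 kb, had 0% in every library.

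Peaks crossed the 5′ end of Tlr2 in 3 libraries. They were chr3:83840736-83845861 in KO replicate 1, chr3:83838348-83846361 in KO replicate 2 and chr3:83839102-83846020 in WT replicate 1. In WT replicate 2 the same stretch held a pair of peaks, chr3:83841108-83841809 and chr3:83842331-83846272, with a gap over the gene's annotated end. The first 3 peaks were wide, at 5126, 8014 and 6919 bp, and their maxima ranked at percentiles 93.0, 97.2 and 97.4 of their own lists. Each of these widths was several times the median peak of its list, which was 1140, 1557 and 1512 bp. The pair in WT replicate 2 was 702 and 3942 bp wide, in a list with a median of 861 bp, and ranked at percentiles 66.2 and 76.5.

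The mark at Tlr2 was part of a longer run of peaks. Tlr2 with 20 kb to each side was covered to 56.1% and 76.5% for the KO mice, then 61.0% and 30.8% for the WT mice, and its mean was above that of 95.4% of all genes. The difference was 20.4 points (SE 14.96, limma adjusted p = 0.99995). Every library had a peak at 11334 of the region's 45553 bases. Another 2550 were covered in the KO pair alone, or 6.96% of the bases covered in any library, and 0 in the WT pair alone. Over the whole genome these shares were 3.85% and 1.21%, and no test was made of the difference. The nearest protein-coding neighbour on the low side was Sfrp2, a secreted Wnt inhibitor gene 61958 bp away, whose low end was covered to 100% in every library. Between Sfrp2 and Tlr2, peaks took up 60.1% and 78.0% of the bases in the KO libraries against 73.3% and 41.3% in the WT libraries. The low end of Tmem131l, 56381 bp to the other side, was covered to 6.4% in KO replicate 2 and 0% in the other 3 libraries. Its high end, farther from Tlr2, had 35.3% in KO replicate 2 and 0% in the other 3.

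**Figure D3:**
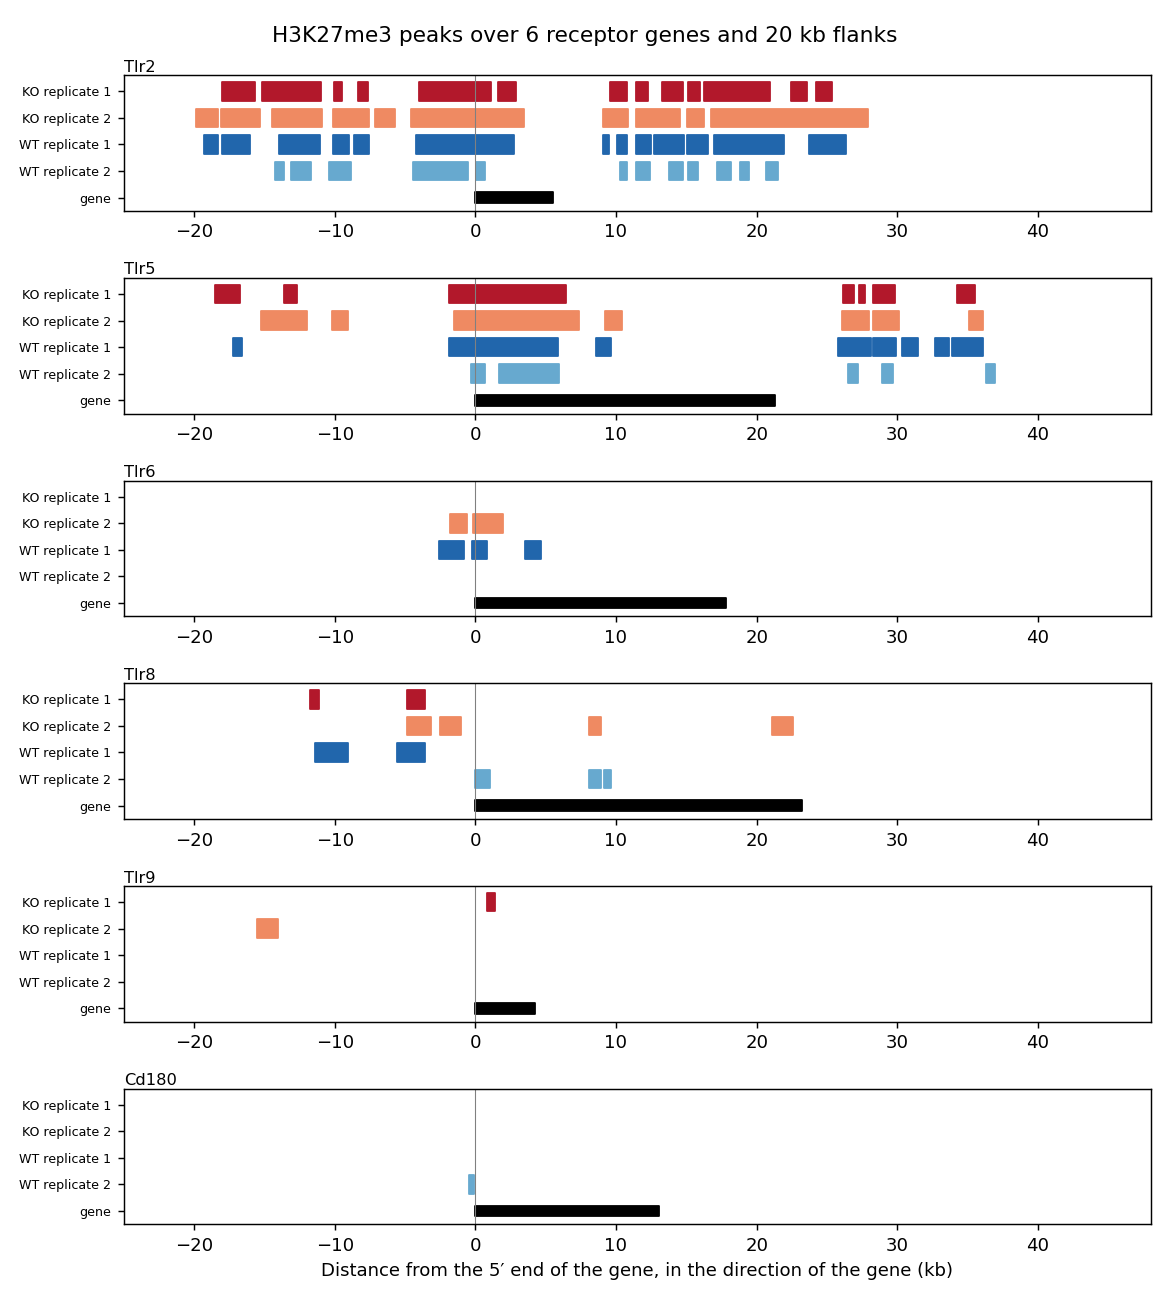
Peaks in each library over 6 receptor genes and their 20 kb flanks, by distance from the 5′ end of the gene in its own direction (x axis, kb), with the gene as a black bar. Tlr2 and Tlr5 have peaks over or beside the 5′ end in all 4 libraries, while Tlr9 and Cd180 have 2 peaks and 1 peak in all, each in a single library.

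Tlr5, the flagellin receptor gene (gene ID 53791), was the other gene marked at its 5′ end in every library. It lies on chromosome 1 at 182954752 to 182976044. Peaks took up 95.9% and 87.3% of its 5′ window in the KO mice, then 96.7% and 33.55% in the WT mice. As at Tlr2, WT replicate 2 stood below the other 3 libraries, and the genotypes overlapped. The means were 91.6% ± 6.10 and 65.1% ± 44.7 (SD, n = 2), a difference of 26.5 points (SE 26.6, limma adjusted p = 0.907), which was -5.11 without WT replicate 2. The 3′ end had 0% in every library.

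A peak of 8291 bp in KO replicate 1, of 8841 bp in KO replicate 2 and of 7725 bp in WT replicate 1 began before the 5′ end of Tlr5 and ran into the gene. In WT replicate 2 that stretch was split into a peak of 1008 bp over the 5′ end, at percentile 22.8 of its list, and one of 4256 bp inside the gene, at percentile 91.9. Over the body of Tlr5 the covered share was 30.3% and 40.1% for KO, then 32.5% and 23.2% for WT, so the libraries differed less over the body than at the 5′ end. With 20 kb flanks the values were 24.6%, 31.4%, 29.0% and 12.0%, above 77.2% of all genes. Of that region's 61293 bases, 6372 lay under a peak in every library. Another 1522 were covered in the KO pair alone (5.72% of those covered in any library) and 0 in the WT pair alone. The whole genome had 3.85% and 1.21%, and no test was made of the difference. Around Tlr4, Tlr6, Tlr7, Tlr9 and Cd180, 0 bases were covered in either pair alone. Tlr8 had 2 in the KO pair alone and 0 in the WT pair alone.

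Tlr6, which pairs with Tlr2 (gene ID 21899, chromosome 5, 64953092 to 64970942), was marked in the broadest list of each genotype and bare in the others. Its outermost 5′ end was covered to 0% and 85.2% for the KO mice, and to 56.95% and 0% for the WT mice. The means were 42.6% ± 60.2 and 28.5% ± 40.3 (SD, n = 2), and the difference of 14.1 points (SE 42.5, limma adjusted p = 0.984) was below the spread within either genotype. Without KO replicate 2 it was -28.5 points. This end is shared: Tlr6 and Fam114a1 overlap there by 868 bp, and the low end of Fam114a1 was covered to 0%, 68.95%, 35.25% and 0%. RefSeq starts in the promoter table lie 10894 and 11776 bp inside Tlr6, and the 4 kb around each had 0% in every library. The covered end is thus not at these starts of Tlr6.

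Tlr1 (gene ID 21897), the other partner of Tlr2 and the neighbour of Tlr6, had no peak within 20 kb in any library. The 19491 bp between the pair were covered to 0% throughout. Of the 10 genes, Tlr1 was the 1 with no peak at all in that range.

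Tlr4, the LPS receptor gene (gene ID 21898, chromosome 4, 66827551 to 66846581), had 0% at both ends and over its body in every library. Its only peak within 20 kb was 667 bp wide in WT replicate 2, at percentile 3.51 of that list. Tlr3, which detects double-stranded RNA (gene ID 142980, chromosome 8, 45395665 to 45411075), had 0% at its 5′ end in every library and at most 3.90% at its 3′ end. Over its body, 7.49% was covered in WT replicate 1 and 0% elsewhere.

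The flanks of Tlr3 did carry peaks, which took up 19.2% and 26.8% for the KO mice and 24.96% and 10.9% for the WT mice, the gene included. The highest of these peaks, at percentiles 98.2, 99.3, 99.1 and 95.1 of their lists, lay beyond its 3′ end over the high end of Fam149a, 13374 bp from Tlr3. That end of Fam149a was covered to 100%, 100%, 100% and 81.4%. Around Tlr3 both kinds of base occurred. There were 1056 covered in the KO pair alone (4.86% of those covered in any library) and 669 in the WT pair alone (3.08%). Over the whole genome these shares were 3.85% and 1.21%. The value of Tlr3 with its flanks thus came almost entirely from outside the gene.

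Tlr8, a receptor for RNA, lies next to Tlr7 on the X chromosome (gene ID 170744, 167241123 to 167264329), and its coverage was thin and unlike between libraries. The 5′ end had 0% and 25.2% in KO and 0% and 26.8% in WT. The 3′ end had 33.6% in KO replicate 2 and 0% elsewhere. The 2 libraries with coverage at the 5′ end did not share a peak there. A peak 8 kb inside the gene was nearly the same in them, at chrX:167255395-167256212 in KO replicate 2 and chrX:167255417-167256212 in WT replicate 2. Before the gene, KO replicate 1, KO replicate 2 and WT replicate 1 had peaks that overlapped near chrX:167267938-167269179, and WT replicate 2 had none. The difference at the 5′ end was -0.81 points (SE 15.7, limma adjusted p = 1.0).

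Among the 3 receptors used by B cells, Tlr7 had no coverage at either end or over its body in any library. Tlr7 (gene ID 170743) occupies positions 167303380 to 167330574 of the X chromosome. Within 20 kb it had a peak of 990 bp in KO replicate 2 and one of 366 bp in WT replicate 2. They ranked at percentiles 8.02 and 79.8 of their lists and lay at different places between Tlr8 and Tlr7. Of those 39050 bases between the genes, peaks took up 4.85% and 10.7% in the KO libraries, with 11.02% and 0.948% in the WT libraries. The mark was sparse on the X chromosome as a whole, where 7.76%, 11.6%, 9.89% and 5.43% of 1932 gene ends were marked.

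Tlr9, the receptor for DNA rich in unmethylated CG (gene ID 81897, chromosome 9, 106222598 to 106226876), was covered to 14.025% at its 5′ end in KO replicate 1 and 0% in the other 3 libraries. That came from a single peak of 561 bp, chr9:106223457-106224017, which began 859 bp after the start and ranked at percentile 20.2 of its list. The difference was 7.01 points (SE 7.0, limma adjusted p = 0.907). KO replicate 2 had a peak of 1509 bp before the gene, over Twf2, at percentile 46.8, and the WT libraries had none within 20 kb.

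Cd180 (gene ID 17079, chromosome 13, 102693547 to 102706631) had a single peak of 327 bp, chr13:102693111-102693437, just before its start in WT replicate 2. This peak ranked at percentile 70.0 of its list. It gave 8.18% at the 5′ end there and 0% elsewhere, a difference of -4.09 points (SE 5.19, limma adjusted p = 0.914). The body and the 3′ end had 0% in every library.

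Set side by side, the 6 ends of Tlr7, Tlr9 and Cd180 had a mean coverage of 2.34%, 0%, 0% and 1.36%. The 14 ends of the other receptors had 13.1%, 23.9%, 18.2% and 8.23%. The B cell receptors were lower in 4 of 4 libraries, by 6.87 to 23.9 points. The mean difference was -14.9 ± 7.63 points (SD over 4 libraries). The gap was widest in KO replicate 2, the broadest list, and narrowest in WT replicate 2, the least broad. With the lists cut to equal covered length it was -12.6 ± 4.35 points. No test was made, because genes are not replicates and the grouping was named with earlier results known. All gene ends averaged 16.7%, 24.0%, 21.1% and 12.6%, so both sets lay below the mean of the genome in each library, the B cell receptors further than the others.

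Most of the difference rested on 2 genes. Without Tlr2 and Tlr5, an alternative added after the data were seen, it was -4.92 points, and KO replicate 1 turned to 2.26. Of the other receptors, Tlr1 and Tlr4 also had no coverage at either end, as did Tlr7, and 36.7% of all genes shared this state. A bare gene was thus not particular to the receptors that B cells use.

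**Figure D4:**
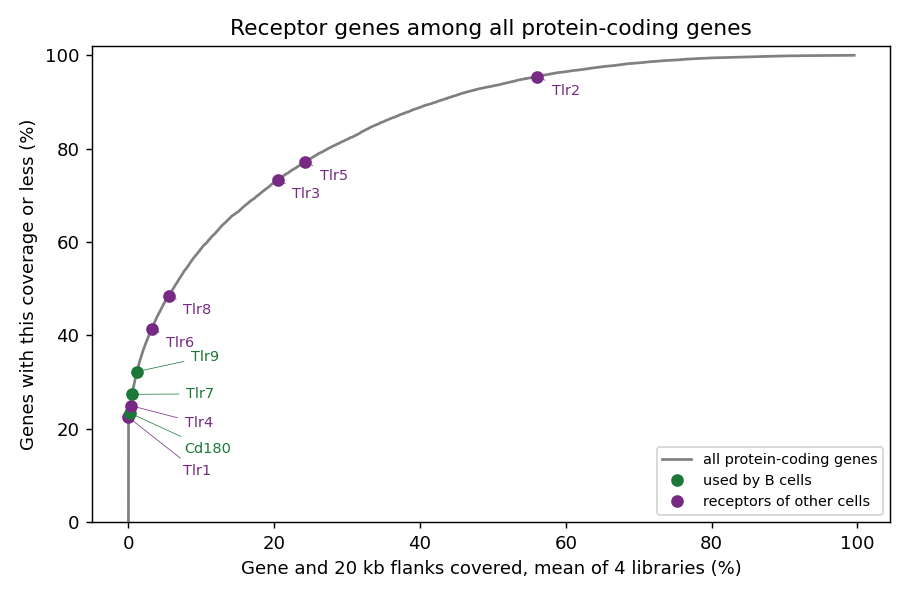
Cumulative share of all protein-coding genes (y axis, %) by the share of the gene and its 20 kb flanks that peaks covered, averaged over 4 libraries (x axis, %). Tlr2, Tlr5 and Tlr3 lie at 56.1%, 24.2% and 20.5%, while Tlr7, Tlr9, Cd180, Tlr4 and Tlr1 lie at 1.17% or less.

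No receptor gene passed the test of genotype. Of the 20 ends, 8 had coverage in some library and entered the fit over 20791 gene ends, and limma called 0 in either direction at an adjusted p of 0.05 (0% of those tested). Unadjusted, a p under 0.05 was found at 701 ends with more coverage in KO (3.37%) and 109 with less (0.524%), and 0 of the 8 were among them. The KO pair stood wholly above the WT pair at 0 of the 8 ends and wholly below at 0, against 13.9% and 2.46% of all gene ends with coverage. Over gene bodies with 20 kb flanks, 16967 genes were tested and again 0 passed in either direction (0% and 0%), with an unadjusted limma p under 0.05 for 34 on the higher side (0.2%) and 0 on the lower (0%). The mean over the 20 ends was 13.3% ± 4.89 in KO and 9.46% ± 4.65 in WT (SD, n = 2), a difference of 3.84 points, against 3.47 over all gene ends. At 2 mice per genotype, absence of a call is no evidence of equal coverage.

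Among 51 genes that act with the receptors, 16, 23, 18 and 7 had a marked end, against 33.9%, 46.7%, 41.1% and 26.9% of all genes. An end was marked in all 4 libraries for 7 (13.7%), against 24.3% of all genes. No coverage at either end was found for 18 (35.3%), against 36.7% of all genes, and these included Myd88, the shared adaptor, Tirap, its bridge to Tlr2 and Tlr4, and the NF-kB subunit gene Rel. Of the 44 ends with coverage, 0 passed limma in either direction, and 2 (in Ikbkb and Socs1, both on the higher side) had an unadjusted p under 0.05, against 3.37% of all ends on that side.

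The list of 28 adaptors, kinases and transcription factors held 2 genes marked in all 4 libraries. Sarm1, an adaptor that limits signalling by Ticam1 and is known for its role in axon loss, had 100% in 3 libraries and 90.9% in WT replicate 2 at its 5′ end. Traf6, the ubiquitin ligase downstream of Myd88, had 38.3% and 65.8% in KO and 54.8% and 40.6% in WT. For Traf6 the genotypes overlapped. Ikbkb, the kinase that releases NF-kB, was marked at its high end in both KO libraries, at 26.95% and 51.2%, with 0% in each WT library (39.1 points apart, SE 10.8, limma adjusted p = 0.907).

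Of the 15 co-receptors, chaperones and proteases, 4 were marked in all libraries. Cd14, which hands LPS to Tlr4, had 100% at both ends in every library, and Lbp, the serum protein that carries LPS to Cd14, had 70.6% and 76.8% in KO and 81.6% and 54.6% in WT at its low end. Slc15a4, an endosomal transporter needed for Tlr7 and Tlr9 signalling, had 64.8% and 100% in KO and 69.8% and 62.35% in WT at its 5′ end. Ctsb, a lysosomal protease, had 48.9% to 66.4%. By contrast, Ly86, the partner of Cd180, Ly96, the partner of Tlr4, and Unc93b1, the chaperone of the endosomal receptors, had 0% at both ends in every library. The high end of Lbp had 21.25% and 0% in KO and 73.0% and 0% in WT. Cd14 and the low end of Lbp were thus covered while the Tlr4 gene itself was bare.

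Of 8 negative regulators, Il1rl1, a receptor of the same superfamily, was marked at its 3′ end in all libraries, at 31.9% and 34.9% in KO and 60.5% and 27.2% in WT. Socs1, which dampens cytokine signalling, had 39.1% and 33.7% at its 5′ end in the KO libraries, with 0% in each WT library (36.4 points apart, SE 4.53, limma adjusted p = 0.907). Sigirr, an inhibitory receptor, had 25.6% and 100% in KO and 20.7% and 9.75% in WT at its low end, while its high end was marked in KO replicate 2 and WT replicate 1 (0%, 72.1%, 35.6% and 0%). Together with Ikbkb, these made 3 of the 51 genes with an end marked in the KO pair alone, against 1.82% of all genes, and 0 showed the reverse, against 0.315%. KO minus WT over all gene ends was 3.47 points, which turned to -0.212 without KO replicate 2 and -0.793 without WT replicate 2, and its part in these 3 genes was not tested.

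**Figure D5:**
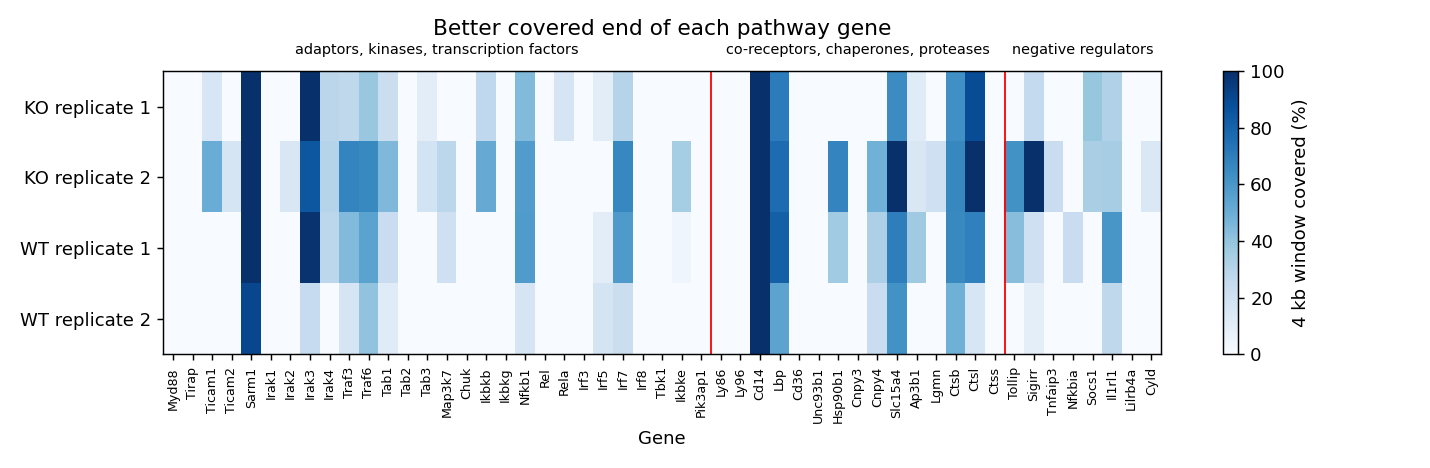
Covered share (colour, %) of the 4 kb window at the better covered end of each of 51 pathway genes (x axis) in each library (y axis), with red lines between the 3 lists. Cd14 is at 100% in all 4 libraries, and the row of WT replicate 2 is the palest.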

How the data were processed

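Peak lists of 4 CUT&Tag libraries, called per library, were used. The authors deposited 6 columns with peak position, total signal and highest signal. Per the submitters' processing notes the build was mm10 and the tools included SEACR, deepTools, SAMtools 1.11, Bowtie2 2.4.2 and Trim Galore 0.6.6. For roles and settings: not given in the sources used here. The scale of the signal (coverage) is unknown, so it only ranked peaks within a list, and read depth is unknown. Only peaks on the 19 autosomes and the sex chromosomes were used.

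Gene positions and promoter sequences came from RefSeq on GRCm38.p6. Exons and UTRs were not used here. The share of 4000 bp around each gene end, and of each gene with 20 kb flanks, that peaks covered was computed per library (25% or more was called marked). A peak belonged to a gene if it overlapped this range by 1 bp. KO was compared with WT by limma 3.58.1 (lmFit, eBayes) in R 4.3.3 over all genes with coverage in any library, with Benjamini-Hochberg adjustment. The code was tested first on simulated data. Their normal noise had a smaller spread than the 5′ ends of Tlr2, Tlr5 and Tlr6 within either genotype. That check therefore does not show how limma performs on these data. The limma p-values rest on the spread between 2 mice per genotype, which limma draws towards a value shared by all genes.

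The members, lists and tests were chosen with earlier results of these data known. Besides the members, pathway genes were named where an end was marked in all 4 libraries or in both libraries of 1 genotype and neither of the other. The genes most like a member were taken by the mean absolute difference in coverage over both ends and 4 libraries. A few other pathway genes (Myd88, Tirap, Rel, Ly86, Ly96, Unc93b1) and the neighbours of the members were named after their values were seen. Alternatives changed the window, flank, threshold, peaks, covariate, filter or libraries. Scripts used pandas 2.3.3 and numpy 2.4.6 under Python 3.11.15.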

Additional observations from a re-analysis of the deposited data

How the results depend on the processing

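Depth is unknown and each genotype has 2 mice, so small differences could not be resolved. No paired analysis was possible because the labels number no replicates: the numbers used here follow accession order and only name libraries. No receptor gene passed limma at an adjusted p of 0.05 under any alternative run. Over all genes, 27 gene ends (22 higher, 5 lower in KO) passed when those without coverage were kept, a fit in which most residual spreads are 0 and limma calls its own estimate unreliable. Over bodies without flanks 2 genes passed, neither a receptor. Leaving out each library gave 0 calls throughout. The fits without a library rest on 1 residual degree of freedom, and a lone library is assumed to vary like the other genotype.

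The 2 receptor ends marked in all libraries became 1, Tlr2, with the stricter peaks and at 50% covered. They stayed 2 without any 1 library. The B cell receptors minus the others ranged from -17.6 to -11.9 points without a library and was -4.92 without Tlr2 and Tlr5. At equal covered length it was -12.6 points, and with the stricter peaks -12.2. KO minus WT over the member ends ranged from 0.378 to 7.30 points (-0.793 to 7.73 over all gene ends, and 0.937 at equal covered length, where the members had 2.37) and over bodies with flanks from 0.0446 to 6.95. Peaks over the members numbered 124, or 90 to 95 without a library. The differences of single genes reversed under some alternatives. Without a library Tlr2 ranged from -6.96 to 38.1, Tlr5 from -5.11 to 58.1, Tlr6 from -28.5 to 56.7 and Tlr8 from -14.2 to 12.6 points. With 5000 bp to each side Tlr6 had -2.81 and Tlr8 9.79, and with 1000 bp Tlr8 had -24.9. The cause of these reversals was not tested.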

Other observations

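The other 3 mouse Toll-like receptor genes, Tlr11, Tlr12 and Tlr13, were outside the comparison. Tlr11 had no peak within 20 kb in any library, and Tlr13 had 0% at both ends. Tlr12, which acts with Tlr11 in sensing parasite profilin, had 18.8% and 63.1% in KO and 40.025% and 0% in WT at its 5′ end (difference 20.9 points, SE 24.9, limma adjusted p = 0.907). Its short body was covered to 6.30%, 98.6%, 55.6% and 0%. As at Tlr6, the broadest list of each genotype was the higher of its pair, and the genotypes overlapped.

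Among 21886 other genes, those most like Tlr6 over both ends and 4 libraries were Slc25a29, Pkd1l1 and Plg, with mean absolute differences of 2.39, 2.47 and 2.77 points over 8 values. For Tlr9 they were Lrrc31, Tmcc1 and Man2c1, and for Cd180 Vps13b, Pcdh15 and Abl2, with differences of at most 0.00625 points. These 6 genes had coverage at 1 end in 1 library only, as Tlr9 and Cd180 did.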
